A study of Homo sapiens with 4 samples.

Results

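The microRNA processing and silencing machinery was examined in human colorectal cancer cells that were made to overexpress a microRNA. It consisted of 10 genes, namely DROSHA, DGCR8, XPO5, DICER1, TARBP2, PRKRA, AGO1, AGO2, TNRC6A and TNRC6B. They were found on the arrays as the 14 probes, of 31741, whose only gene symbol was one of these names or an older form of it. All 10 genes, of 18365 named by a probe of their own, were represented. AGO1 and AGO2 stood on the arrays under their older symbols EIF2C1 and EIF2C2. No probe shared a symbol of the list with another gene, and no probe was left out for low signal.

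RNA of DLD-1-miR-21 cells was compared with that of DLD-1-vector cells, with 2 single-color arrays for each line. DLD-1-miR-21 cells were DLD-1 colorectal cancer cells that stably carried a plasmid for human miR-21, and DLD-1-vector cells (labeled DLD-1-miR-Vec) carried the empty plasmid pCMV-MIR. Both lines had been under selection for 2 months in G418 at 1 mg/mL and were kept in medium with 0.5 mg/mL of it. Clones that expressed the green fluorescent protein of the plasmid were then pooled, so that each line is a single pool of clones. Separate cultures are not stated for the 2 arrays of each line. P-values therefore measure only how far these arrays differ, and that may be technical.

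A microRNA is made in steps. Its long primary transcript is cropped to a hairpin in the nucleus by the RNase III enzyme DROSHA with its RNA-binding partner DGCR8, and exportin 5 (XPO5) carries the hairpin to the cytoplasm. There the RNase III enzyme DICER1, bound by TARBP2 or PRKRA, cuts away the loop, and a strand of the product is loaded into an Argonaute protein such as AGO1 or AGO2. Argonaute finds target mRNAs by the seed of the microRNA, and proteins of the TNRC6 family bind Argonaute and recruit the complexes that deadenylate, decap and repress these mRNAs. The microRNA overexpressed here, a much studied oncogenic microRNA of the colon, passes through all of these steps. Its mature sequence is shown because it is the product of this machinery that distinguished the lines. It lies at chr17:59841273-59841294 on the plus strand (RefSeq, GRCh38.p14), and the capitals mark the seed, bases 2 to 8.
hsa-miR-21-5p: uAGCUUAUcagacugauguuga

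The microRNA itself was not measured on these arrays. Of its known targets, SPRY2, a negative regulator of receptor tyrosine kinase signaling, had intensities of 223 and 271 in DLD-1-miR-21 cells, against 1141 and 1334 in DLD-1-vector cells, and fell with a log2 ratio of -1.24 (SE 0.14, adjusted p = 0.00523 from limma). PDCD4, an inhibitor of translation, had log2 ratios of -0.08 on its brighter probe (adjusted p = 0.617) and of -0.65 on its dimmer probe (adjusted p = 0.0225). The call on the dimmer probe was lost without any one of the 4 arrays and with arrays centred on their medians (log2 ratio -0.15, adjusted p = 0.555). By quantitative PCR, the study itself reported more miR-21 and less PDCD4 mRNA in DLD-1-miR-21 cells. It also reported less PDCD4 protein by Western blot. Of 8 colorectal epithelial marker genes with a probe, 6 were brighter than the median probe on all arrays, and after normalization 2 of the 8 fell (EPCAM and KRT8) and 3 rose (KRT20, VIL1 and the brighter probe of CDH17, whose dimmer probe had a log2 ratio of -1.53). EPCAM had 20843 and 22626 in DLD-1-miR-21 cells, against 98637 and 103276 in DLD-1-vector cells. The leukocyte marker PTPRC lay between 18 and 81 on both its probes on all arrays. Not every marker of another cell type was dim, since CD14 lay between 2837 and 3778 and COL1A1 between 1808 and 4294. After normalization 1 of 3 leukocyte, 2 of 5 fibroblast and 1 of 3 endothelial marker genes rose and none fell. Among all genes on their brightest probes, 22.4% were lower and 24.6% were higher at the same threshold, an adjusted p under 0.05 from limma. The summed intensities were 3086 and 3910 in DLD-1-miR-21 cells, against 3037 and 3230 in DLD-1-vector cells, for the leukocyte list, 2380 and 3840 against 4904 and 3629 for the fibroblast list, and 1693 and 1976 against 2203 and 2475 for the endothelial list. The part of these genes in the results below was not tested.

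All 14 probes of the machinery were dimmer on both DLD-1-miR-21 arrays than on either DLD-1-vector array in the deposited intensities. This also held for 63.5% of all probes, and the arrays had not been brought to a common scale. The median probe had an intensity of 255 and 339 in DLD-1-miR-21 cells, against 571 on both DLD-1-vector arrays. The intensities were therefore quantile-normalized, which gives each array the same distribution of values. 50 was then added to each value before log2 was taken, and the lines were compared by limma, with p-values adjusted over the whole array by the Benjamini-Hochberg method. A log2 ratio below is the DLD-1-miR-21 line relative to the DLD-1-vector line on this scale, which understates the changes of dim probes. Quantile normalization would hide a decrease common to most transcripts.

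**Figure D1:**
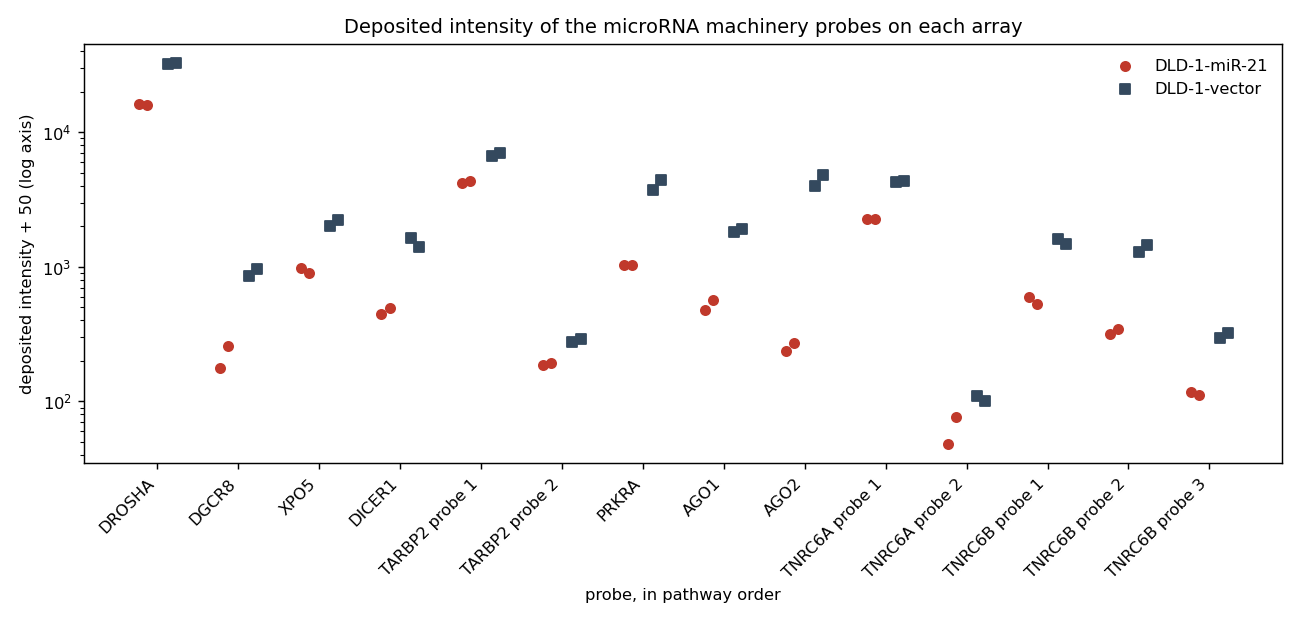
Deposited intensity (50 added, log axis) of the 14 machinery probes, in pathway order along the horizontal axis, with 1 point for each of the 2 DLD-1-miR-21 (red circles) and 2 DLD-1-vector (blue squares) arrays. Every red point lies below both blue points of its probe, with the widest gap at AGO2 (187 and 224, against 3930 and 4742), before any scaling between arrays.

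Relative to the arrays as a whole, some genes of the machinery were called lower in the DLD-1-miR-21 line and others were not. A gene that was not called is not thereby shown to be unchanged. AGO2 fell most, followed by DGCR8, and smaller decreases were measured for AGO1, PRKRA and DICER1. TNRC6B fell on 2 of its 3 probes but not on its brightest. The first enzyme of the pathway, DROSHA, and the export factor XPO5 did not pass the test in either direction, and the brighter probe of TARBP2 rose. At an adjusted p under 0.05, 7 of 14 probes were lower, 1 was higher and 6 missed the threshold. Among all probes, 21.8% were lower and 23% were higher at this threshold, and among probes brighter than the median these shares were 28.8% and 26.9%. A negative log2 ratio was found for 10 of the 14, against 45.7% of all probes. Both DLD-1-miR-21 values lay under both DLD-1-vector values after normalization for 9 of the 14, against 34.8% of all probes. With each gene read by its brightest probe, 5 of 10 genes were lower and 1 was higher, against 22.4% and 24.6% of all genes. The median log2 ratio of the 14 probes was -0.55, that of all probes was 0.07, and 11 of the 14 lay in the lower 50% of all log2 ratios. Only AGO2 lay below the 5th percentile of all probes, which was -1.66. At the thresholds of the study, a log2 ratio of at most -1 with an unadjusted p under 0.05, 4 of the 14 probes were lower, against 12.3% of all probes.

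These calls rest on few arrays. Without DLD-1-miR-21 replicate 2, 0 of the 14 were called by limma (smallest adjusted p 0.0551), and the same was true of all 31741 probes (0%). At an unadjusted p under 0.05, 6 of the 14 were then lower and 2 higher, against 20.9% and 20% of all probes. Of the 14, 4 were called lower without DLD-1-miR-21 replicate 1 (11.9% of all probes), 4 without DLD-1-vector replicate 2 (14.8%) and 6 without DLD-1-vector replicate 1 (18.8%). AGO2, DGCR8 and the second probe of TNRC6B lost their call only without DLD-1-miR-21 replicate 2. The call of AGO1 was lost without either DLD-1-miR-21 array, and that of the dimmest TNRC6B probe without DLD-1-miR-21 replicate 2 or DLD-1-vector replicate 2. The rise of TARBP2 was not called without any one of the 4 arrays.

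**Figure D2:**
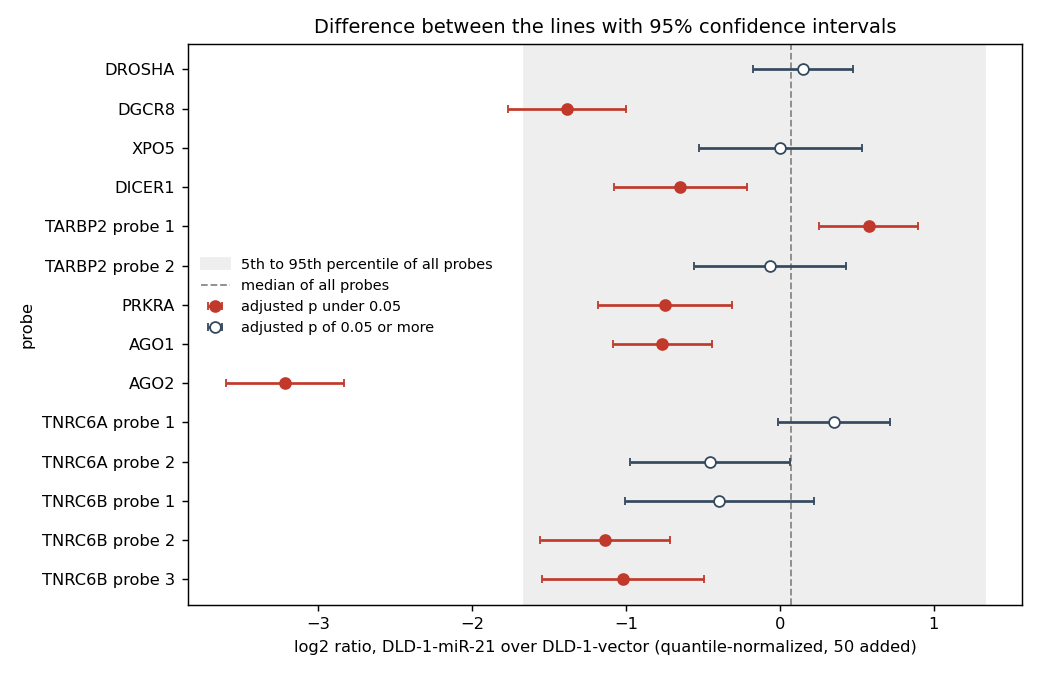
Log2 ratio (DLD-1-miR-21 line relative to DLD-1-vector line) of each of the 14 probes, with its 95% confidence interval from limma. Filled red points have an adjusted p under 0.05, open points do not, the dashed line is the median of all probes (0.07) and the grey band spans their 5th to 95th percentile (-1.66 to 1.33). AGO2, at -3.22, is the only probe outside the band.

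At the nuclear steps DGCR8 fell, while DROSHA and XPO5 did not pass. DROSHA (probe PH_hs_0025710), which makes the first cut, had intensities of 16283 and 15894 in DLD-1-miR-21 cells, against 32064 and 32649 in DLD-1-vector cells. The probe held nearly the same place in each array, at percentiles 96.6 and 96.4 of all probes in DLD-1-miR-21 cells and 96.2 and 96.0 in DLD-1-vector cells. Its log2 ratio was 0.15 (95% confidence interval -0.17 to 0.47, adjusted p = 0.363 from limma). DGCR8 (probe PH_hs_0034658), the partner that recognizes the primary transcript, had 127 and 209 in DLD-1-miR-21 cells, against 806 and 917 in DLD-1-vector cells. The lines were well apart, and the probe stood at percentiles 32.9 and 37.1 in DLD-1-miR-21 cells, against 56.2 and 58.0 in DLD-1-vector cells. DGCR8 fell with a log2 ratio of -1.38 (SE 0.14, 95% confidence interval -1.76 to -0.998, adjusted p = 0.00438 from limma), which is 2.60-fold. XPO5 (probe PH_hs_0023015), the exporter of the hairpin, had 933 and 845 in DLD-1-miR-21 cells, against 1965 and 2197 in DLD-1-vector cells. After normalization the lines overlapped, with a log2 ratio of 0.0031 (95% confidence interval -0.52 to 0.53, adjusted p = 0.991 from limma).

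In the cytoplasm, DICER1 and PRKRA were called lower while TARBP2 was not. DICER1 (probe PH_hs_0004928) had intensities of 400 and 447 in DLD-1-miR-21 cells, against 1581 and 1362 in DLD-1-vector cells, and fell with a log2 ratio of -0.65 (SE 0.16, adjusted p = 0.0346 from limma). Its call did not hold without any one of the 4 arrays (adjusted p between 0.0554 and 0.163) or when values under 32 were set to 32 (adjusted p = 0.055), although the sign was negative each time. PRKRA (probe PH_hs_0029214), a double-stranded RNA-binding protein that binds DICER1 and also activates the kinase PKR, had 981 and 978 in DLD-1-miR-21 cells, against 3645 and 4341 in DLD-1-vector cells. It fell with a log2 ratio of -0.75 (SE 0.16, adjusted p = 0.0236 from limma), and this call was lost without DLD-1-miR-21 replicate 1 or 2 or DLD-1-vector replicate 2.

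TARBP2, which is related to PRKRA and is also a partner of DICER1, was read by a bright and a dim probe. The bright one (PH_hs_0000039) had 4162 and 4304 in DLD-1-miR-21 cells, against 6603 and 6954 in DLD-1-vector cells. Its intensity thus dropped less than that of the median probe, and it stood at percentiles 89.4 and 88.9 in DLD-1-miR-21 cells, against 85.6 and 85.3 in DLD-1-vector cells. Its log2 ratio was 0.58 (SE 0.12, adjusted p = 0.0212 from limma), the only increase called among the 14 probes. It was 0.18 with arrays centred on their medians instead (adjusted p = 0.488) and -0.67 without normalization between arrays (adjusted p = 0.0265), so that the direction rests on the scaling. The dim probe (PH_hs_0035310) had 138 and 143 in DLD-1-miR-21 cells, against 227 and 240 in DLD-1-vector cells, and a log2 ratio of -0.06 (adjusted p = 0.80 from limma). With the mean of both probes, TARBP2 had a log2 ratio of 0.26 and did not pass (adjusted p = 0.186).

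AGO2, the Argonaute protein that can itself cut a target RNA, gave the largest difference of the 14 probes. Its probe (PH_hs_0026253) had intensities of 187 and 224 in DLD-1-miR-21 cells, against 3930 and 4742 in DLD-1-vector cells. On the DLD-1-vector arrays it was among the brighter probes, at percentiles 79.6 and 80.9, whereas on the DLD-1-miR-21 arrays it was dimmer than the median probe, at percentiles 42.9 and 39.4. The normalized log2 value was 8.38 ± 0.14 in DLD-1-miR-21 cells and 11.59 ± 0.12 in DLD-1-vector cells (SD, n = 2 each). The log2 ratio was -3.22 (SE 0.14, 95% confidence interval -3.60 to -2.83, adjusted p = 0.00196 from limma), or 9.30-fold lower. Only 114 of all probes had a lower ratio. Under the alternatives with normalization it ranged from -3.43 to -2.996. The study had picked this gene from the same arrays for a list of strongly decreased genes, so its rank is not independent evidence. A single probe represented AGO2, and the annotation does not say which part of the transcript it reads.

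AGO1, the paralog that binds microRNAs without being known for strong cutting activity, also fell. Its probe (PH_hs_0023696) had 430 and 522 in DLD-1-miR-21 cells, against 1780 and 1857 in DLD-1-vector cells, with a log2 ratio of -0.76 (SE 0.12, adjusted p = 0.0107 from limma). The intervals of AGO1 (-1.08 to -0.44) and AGO2 did not overlap. The other Argonaute genes were not called lower. AGO3 had 1500 and 2318 in DLD-1-miR-21 cells, against 2358 and 2160 in DLD-1-vector cells. These deposited intensities overlapped while most probes dropped, and after normalization AGO3 rose with a log2 ratio of 0.995 (SE 0.19, adjusted p = 0.0178 from limma), which was -0.27 without normalization (adjusted p = 0.452). AGO4 had 286 and 329 in DLD-1-miR-21 cells, against 352 and 836 in DLD-1-vector cells, with arrays of a line far apart and a log2 ratio of 0.14 (SE 0.37, adjusted p = 0.786).

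The TNRC6 genes encode the scaffolds that link Argonaute to deadenylation. TNRC6B had 3 probes, of which the brightest (PH_hs_0021170) had 544 and 482 in DLD-1-miR-21 cells, against 1572 and 1430 in DLD-1-vector cells, with a log2 ratio of -0.39 that did not pass (SE 0.23, adjusted p = 0.226 from limma). The second (PH_hs_0049178) had 265 and 293 in DLD-1-miR-21 cells, against 1241 and 1404 in DLD-1-vector cells, and fell with a log2 ratio of -1.14 (SE 0.16, adjusted p = 0.00798). The third (PH_hs_0006445) was dim, with 67 and 62 in DLD-1-miR-21 cells, against 248 and 275 in DLD-1-vector cells, and fell with a log2 ratio of -1.02 (SE 0.20, adjusted p = 0.0174), a call that was lost with median centring (log2 ratio -0.59, adjusted p = 0.0613). All its probes thus had a negative ratio, and their mean gave -0.85 for the gene (adjusted p = 0.0187). The difference between the probes was not tested.

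TNRC6A did not pass on either probe. The bright one (PH_hs_0049366) had 2225 and 2220 in DLD-1-miR-21 cells, against 4254 and 4298 in DLD-1-vector cells, with a log2 ratio of 0.35 (95% confidence interval -0.01 to 0.71, adjusted p = 0.0989 from limma). The other (PH_hs_0023497) had -2 and 26 in DLD-1-miR-21 cells, against 59 and 51 in DLD-1-vector cells, which is close to the subtracted background in both lines. It had a log2 ratio of -0.45 (adjusted p = 0.124), and one of -0.82 when 16 was added in place of 50. TNRC6C, the remaining member of the family, had 529 and 831 in DLD-1-miR-21 cells, against 768 and 732 in DLD-1-vector cells, and rose on its brighter probe with a log2 ratio of 0.91 (SE 0.16, adjusted p = 0.0141). Its other probe had a log2 ratio of 0.34 (adjusted p = 0.103). Without normalization the brighter probe gave -0.16. After normalization both families thus held a gene with a probe called lower and a gene with a probe called higher.

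Because the scaling decided some directions, each probe was also divided by DROSHA on the same array. Such a ratio is untouched by any factor that scales a whole array. DROSHA was chosen for this after its values had been seen. It compares changes, not levels, of the probes. Relative to DROSHA, 9 of the 13 other probes were lower on both DLD-1-miR-21 arrays than on either DLD-1-vector array, 3 were higher, and the dim probe of TNRC6A overlapped. Among all probes, 30.6% were lower and 36.9% were higher in this sense. The AGO2 to DROSHA ratio was 1.15% and 1.41% in DLD-1-miR-21 cells, against 12.3% and 14.5% in DLD-1-vector cells, 10.5 times lower. The ratio to DROSHA was 2.54 times lower for DGCR8, 2.03 times lower for PRKRA, 1.90 times lower for AGO1 and 1.73 times lower for DICER1. For TNRC6B it was 1.46, 2.35 and 2.02 times lower on its 3 probes, and for XPO5 it was 1.16 times lower. Both probes of TARBP2 were higher relative to DROSHA, 1.26-fold and 1.21-fold, and the bright probe of TNRC6A was 1.05-fold higher. With 2 arrays against 2, an exact two-sided permutation test cannot give a p under 0.333, so these ratios carry no test.

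Without any normalization between arrays, 13 of the 14 probes were lower at an adjusted p under 0.05 and 0 were higher, against 44.2% and 1.31% of all probes. The median log2 ratio was then -1.45 for the machinery and -0.63 for all probes. The added 50 shrinks the log2 ratios of dim probes more than those of bright ones. On their brightest probes, 8 of the 10 genes were brighter than the median probe on all arrays. This comparison with all probes is therefore uneven, and no conclusion is drawn from it. In the deposited intensities themselves, the DLD-1-vector mean divided by the DLD-1-miR-21 mean had a median of 1.79 over all probes and of 2.14 over probes brighter than the median. This quotient was 21.1 for AGO2 and 5.13 for DGCR8. It was 2.34 for XPO5, 2.01 for DROSHA and 1.92 for the bright probe of TNRC6A, and was smallest for the bright (1.60) and dim (1.66) probes of TARBP2.

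**Figure D3:**
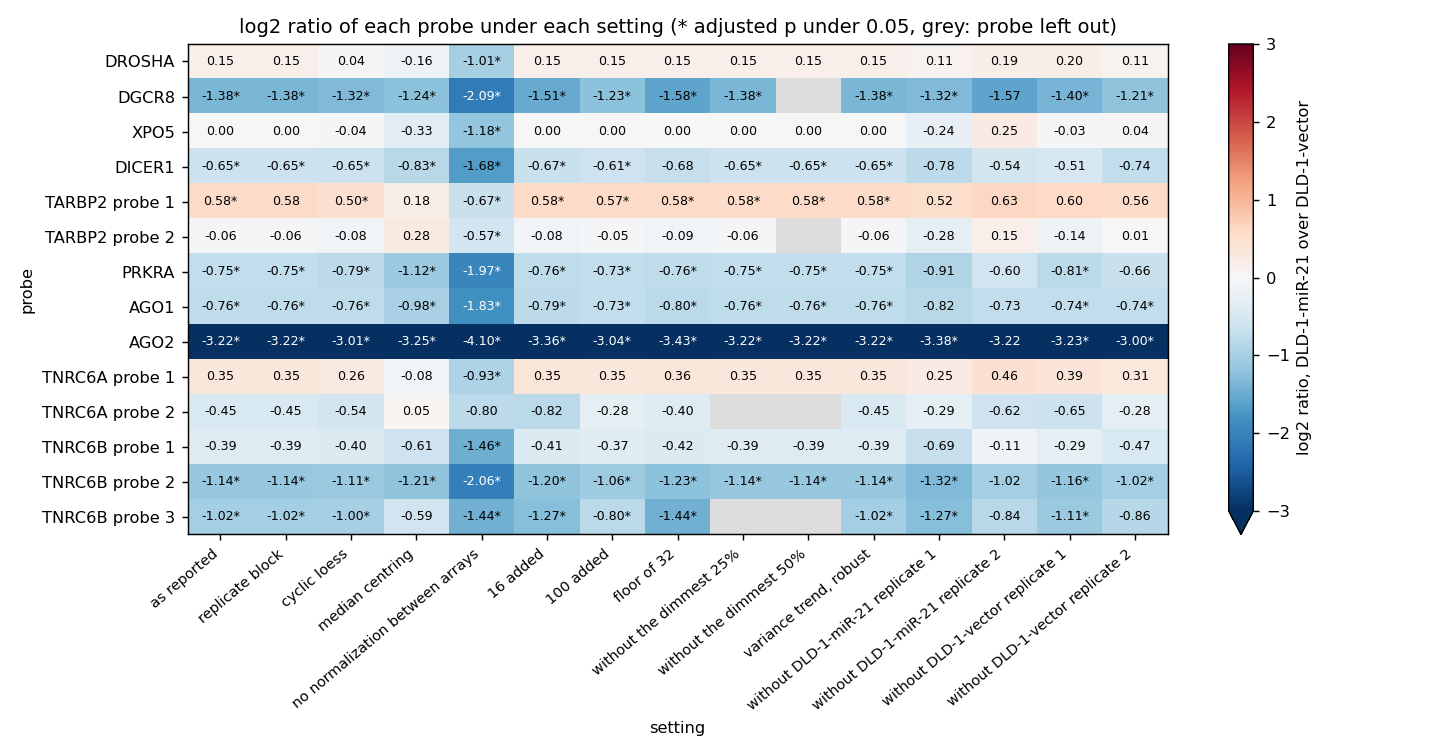
Log2 ratio (DLD-1-miR-21 line relative to DLD-1-vector line) of each of the 14 probes (rows) under the reported setting and each alternative (columns), colored from blue (negative) to red (positive), with an asterisk where the adjusted p is under 0.05 and grey where the probe was left out as dim. AGO2 stays between -4.10 and -2.996 throughout, while DROSHA, XPO5 and both probes of TARBP2 and TNRC6A change sign between columns.

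Other genes of the pathway were described from a list of genes that assist these steps, of which 48 were analysed here. With 1 probe a gene, the brightest, 23 fell, 9 rose and 16 missed the threshold, against 22.4% lower and 24.6% higher among all genes. The median log2 ratio over all 66 probes of the list was -0.40, against 0.07 for all probes. NUP153, a nuclear pore protein of the basket, had 179 and 202 in DLD-1-miR-21 cells, against 4892 and 5957 in DLD-1-vector cells, and fell most with a log2 ratio of -3.64 (SE 0.17, adjusted p = 0.00196 from limma). Like AGO2, NUP153 was on the list of strongly decreased genes that the study took from these arrays, so its rank is not independent evidence. DDX6, a helicase that promotes decapping and translational repression, had 2952 and 2508 in DLD-1-miR-21 cells, against 32726 and 41969 in DLD-1-vector cells, and a log2 ratio of -2.52 on this probe, while its dimmer probe gave 0.10. CNOT9, the subunit of the deadenylase complex that TNRC6 proteins contact, fell with a log2 ratio of -2.01 (SE 0.12, adjusted p = 0.00222).

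The chaperones that help to load small RNAs into Argonaute were also lower on their brightest probes in part. HSP90AB1 had a log2 ratio of -1.84 (SE 0.14, adjusted p = 0.00262 from limma) and HSP90AA1 one of -1.51 (SE 0.12, adjusted p = 0.0027). The dimmer probe of HSP90AA1 gave a smaller decrease of -0.63 (SE 0.13, adjusted p = 0.0205 from limma). Their helpers STIP1 and FKBP4 fell with log2 ratios of -0.57 and -0.60 (adjusted p = 0.0247 and 0.0262), while the dimmer probe of FKBP4 gave 0.44. HSPA8, the constitutive HSP70 chaperone, did not pass on its brightest probe (log2 ratio -0.28, adjusted p = 0.125), while its dimmer probe gave -3.85. HSPA8 was also on the study's list of strongly decreased genes from these arrays. The LIM protein AJUBA fell with a log2 ratio of -1.47 (SE 0.16), and its dimmer probe gave 0.55.

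Increases were fewer. PABPC1, the cytoplasmic poly(A)-binding protein that TNRC6 proteins contact, had 2286 and 3261 in DLD-1-miR-21 cells, against 3292 and 3214 in DLD-1-vector cells, and rose with a log2 ratio of 1.02 (SE 0.16, adjusted p = 0.00993 from limma). Beside AGO3 and TNRC6C, the poly(A) polymerase TENT2 (0.84, adjusted p = 0.0456), the DROSHA-associated helicase DDX17 (0.64, adjusted p = 0.0168) and FXR2 of the FMR1 family (0.52, adjusted p = 0.0266) rose. The dimmer probe of TENT2 gave 0.11 and did not pass (adjusted p = 0.53 from limma). Without normalization between arrays the log2 ratios of all 6 genes on their brightest probes were negative, between -0.74 and -0.16. In that setting 0 of the 48 genes were called higher, against 1.31% of all probes. AGO3 and DDX17 also lost their call without DLD-1-miR-21 replicate 1 or 2 or DLD-1-vector replicate 2, TNRC6C and PABPC1 without DLD-1-miR-21 replicate 2, TNRC6C also without DLD-1-vector replicate 2, TENT2 without any array but DLD-1-vector replicate 1, and FXR2 without any one of the 4. As among the members, these increases are relative to the arrays as a whole.

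**Figure D4:**
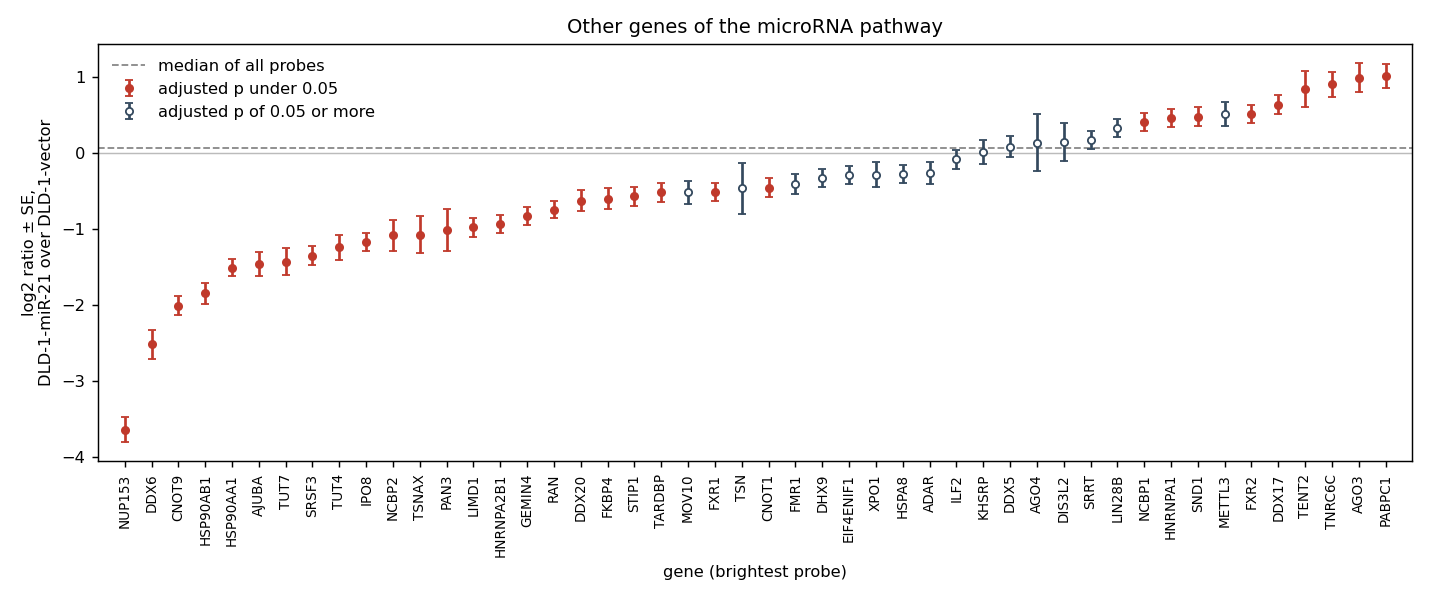
Log2 ratio (DLD-1-miR-21 line relative to DLD-1-vector line, ± SE from limma) of the 48 other genes of the microRNA pathway, each on its brightest probe, ordered from the lowest to the highest. Filled red points have an adjusted p under 0.05. The ratios run from -3.64 for NUP153 to 1.02 for PABPC1, with 23 genes called lower and 9 called higher.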

How the data were processed

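RNA of the DLD-1-miR-21 line and the DLD-1-vector line was labeled with Cy5 after linear amplification and hybridized to single-color Human OneArray Plus arrays. The deposited values are linear intensities, 1 for each probe on each array. Some lay at or below 0, so the authors had subtracted a background. How the arrays were scanned, read out and normalized is not given in the sources used here, and the column medians show that the arrays were not on a common scale. With so few arrays, every value has limited precision.

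Intensities were quantile-normalized, 50 was added, and log2 values were fitted on group alone with lmFit and eBayes of limma 3.58.1 (R 4.3.3), with 2 residual and 2.48 prior degrees of freedom. Adjustment of p-values followed Benjamini and Hochberg and covered all 31741 probes. The platform annotation, which may use outdated names, gave 1 symbol to 24740 probes, several to 977 and none to 6024. Probes with several named no gene. A single value for a gene is that of its probe with the largest average signal. The script was tested on simulated arrays with independent noise and no difference in scale between arrays. That test cannot show whether the calls would hold for separate cultures or under another scaling.

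The members, the list of other pathway genes and the settings were chosen with earlier results of these data known. Named are every probe of the 10 genes, AGO3, AGO4, TNRC6C, the 6 largest increases and decreases called among the other pathway genes, and SPRY2 and PDCD4 as known targets. HSPA8, STIP1 and FKBP4 were added after their values had been seen. The marker genes of cell types came from a short list. Alternatives were a replicate block, cyclic loess, median centring, no normalization, 16 or 100 added, a floor of 32, removal of the dimmest 25% or 50% of probes, a trended and robust variance, gene means over probes, and omission of each array.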

Additional observations from a re-analysis of the deposited data

How the results depend on the processing

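Without normalization between arrays, 13 machinery probes and all 10 machinery genes were lower and 0 were higher, 40 other pathway genes were lower and 0 higher, and 14025 of all probes were lower and 416 higher, with a median log2 ratio of -1.45 for the machinery. The log2 ratios then turned negative for DROSHA (-1.01), XPO5 (-1.18), the bright probes of TARBP2 (-0.67) and TNRC6A (-0.93), AGO3 (-0.27), AGO4 (-0.74), TNRC6C (-0.16), PABPC1 (-0.25), DDX17 (-0.41), TENT2 (-0.43) and FXR2 (-0.74). Median centring also changed the sign of DROSHA (-0.16), XPO5 (-0.33), the bright probe of TNRC6A (-0.078), its dim probe (0.054) and the dim probe of TARBP2 (0.28), and left 0 machinery probes or genes and 3 other pathway genes higher. Cyclic loess gave XPO5 -0.039 and 5 other pathway genes higher. With 16 added, the median of the machinery was -0.71. Without the dimmest 50% of probes, 4324 of those left were lower and 4685 higher, as fewer were tested. Gene means over probes left 0 machinery genes higher. The counts under median centring, cyclic loess and gene means are not set against shares of all probes here, so they do not single out this pathway.

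Omission of single arrays lowered the counts, and every call was lost when DLD-1-miR-21 replicate 2 was the omitted one. Machinery probes called lower ranged from 0 to 6 and genes from 0 to 4, with 0 called higher each time, and the median of the machinery from -0.73 to -0.56. Other pathway genes ranged from 0 to 17 lower and 0 to 5 higher, and all probes from 0 to 5978 lower and 0 to 6702 higher. The 0 called lower came without DLD-1-miR-21 replicate 2, where 6 machinery probes were lower and 2 higher at an unadjusted p under 0.05 (limma). XPO5 ranged from -0.24 to 0.25, the dim probe of TARBP2 from -0.28 to 0.15 and AGO4 from -0.37 to 0.60. The cause of these changes was not tested.

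The fit with the replicate number as a block left 0 machinery probes or genes and 4 other pathway genes higher, while 7 machinery probes were lower, as without the block. All probes were 5744 lower and 5678 higher. The deviations of same-numbered arrays correlated with r = -0.07 across probes. Whether these arrays share more than a number was not tested.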
